A study of Caenorhabditis elegans with 39 samples.

Results

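The genes described here encode 10 glycolytic enzymes of the nematode Caenorhabditis elegans, chosen by sequence name out of 44968 counted features. They are gpi-1 (Y87G2A.8), pfk-1.1 (Y71H10A.1), aldo-1 (T05D4.1), aldo-2 (F01F1.12), tpi-1 (Y17G7B.7), gpd-2 (K10B3.8), gpd-3 (K10B3.7), pgk-1 (T03F1.3), enol-1 (T21B10.2) and ldh-1 (F13D12.2). Polyadenylated RNA was sequenced from 39 libraries of whole L1 larvae of the laboratory strain N2, 3 generations after ancestors had gone through a long-term dauer, a short-term dauer or control culture. The dauer is a non-feeding, stress-resistant larval form. The F3 larvae were fed for 18 h or starved for 24 h, which gave 3 fed and 7 starved libraries of long-term dauer descendants, 4 fed and 9 starved libraries of short-term dauer descendants, and 4 fed and 12 starved libraries of control descendants. Fed libraries were present in batch 1 only. The long-term dauer libraries of batch 1 were named LC3_40d, LC3_49d and LC4_49d in each feeding state. Names with 40d and 49d were pooled as 1 ancestry. Feeding state, hours in culture and the number of washes before freezing differed together and cannot be told apart.

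Glycolysis splits glucose into pyruvate and yields ATP and NADH. Most of its enzymes catalyse reversible reactions and also serve gluconeogenesis, which worms use to make sugar from stored fat by way of the glyoxylate cycle. The phosphofructokinase step is not reversed by the same enzyme, and lactate dehydrogenase lies after pyruvate, where it interconverts pyruvate and lactate. Because whole larvae were sequenced, fewer cells of a type and less RNA per cell cannot be told apart.

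Of the 10 genes, 9 had reads and entered the tests. The glyceraldehyde-3-phosphate dehydrogenase gene gpd-2 was listed at 0 in all 39 libraries, while gpd-3, which lies in the same operon and has a similar sequence, had 7907 to 32389 counts. The gpd-2 value was not read as absence of expression, and the values of gpd-3 are uncertain to the extent that reads of similar copies were shared or dropped in counting. Reads listed as ambiguous made up 2.70% to 4.20% of a library. The kit did not mark strand, so reads of a gene and of an overlapping gene on the other strand cannot be told apart.

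Reads counted on genes numbered 20950821 to 30313127 in each of the 24 libraries of batch 1, and 8836723 to 13740490 in each of the 15 of batch 2. The lowest count of a tested member in any library was 428. Levels are given as CPM, counts relative to the size of the library, after TMM scaling, which adjusts each library size by a factor so that most genes balance between libraries. The factors were 0.657 to 1.04 in fed libraries (median 0.802) and 0.814 to 1.75 in starved libraries (median 1.07), so TMM raised fed levels relative to starved ones.

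Adult yolk and gonad genes were low, with the 9 listed genes summing to 9.83 to 13.8 CPM in fed and 6.14 to 74.1 CPM in starved libraries. In the mean of the 3 ancestries 4 of the 9 could be tested and 2 were called lower in fed larvae by edgeR (40.2% of all genes). Muscle, intestine, epidermis and neuron markers were present in all libraries, and no marker matched was at 0 throughout. A set of 5 starved libraries stood apart on genes outside this set and on read composition, and were identified after seeing the data. The starved long-term dauer library LC4_49d had 972 CPM of the collagen gene col-17, which fed larvae express, and 17 CPM of acs-2, a fatty acid oxidation gene that is high in starved larvae. Starved control LC6, starved control 14 of batch 2 and starved short-term dauer 14 of batch 2 had 5.27, 2.96 and 6.46 CPM of acs-2, without the fed level of col-17. Starved short-term dauer LC14 had 12.6% of its reads outside genes, against at most 4.74% in the other 38 libraries, and a TMM factor of 1.75, against at most 1.19 elsewhere. No fed library was set apart, although fed control LC12 had a TMM factor of 1.04, against at most 0.966 in the other fed libraries. Fed control LC12 stayed in the runs without the libraries that stood apart.

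Feeding state was compared within each ancestry in batch 1. In fed control descendants, phosphoglycerate kinase, triosephosphate isomerase, enolase, phosphofructokinase and lactate dehydrogenase genes were higher than in starved ones, and aldo-2, 1 of the 2 aldolase genes, was lower. The edgeR quasi-likelihood test with Benjamini-Hochberg adjustment over all 19406 genes called 7 of the 9 tested members in control descendants, against 53.7% of all genes. Of those, 6 were higher in fed larvae (28.7% of all genes) and 1 was lower (25%), and 7 of 9 had an unadjusted p under 0.05 (58.9%). In short-term dauer descendants 7 of 9 were called (58.3% of all genes), 6 higher (28%) and 1 lower (30.2%), and 7 had an unadjusted p under 0.05 (63.9%). In long-term dauer descendants 2 of 9 were called (12.1%), 2 higher (5.81%) and 0 lower (6.33%), and 5 had an unadjusted p under 0.05 (32.8%). In the mean of the 3 ancestries 7 of 9 were called (72.9%), 6 higher (32.7%) and 1 lower (40.2%), with 7 at an unadjusted p under 0.05 (75.1%). Read against these backgrounds, the share of members called in either direction in the mean was near that of all genes, while more members were called higher than lower and more of all genes lower than higher. With library size alone the split of all called genes moved: 882 were higher and 2546 lower in long-term dauer, 3656 higher and 9343 lower in short-term dauer, and 4287 higher and 6169 lower in control descendants, against 1128 and 1228, 5434 and 5870, and 5571 and 4845 with TMM. The median log2 fold change of the 9 members, fed over starved, was 0.47 in long-term dauer, 0.71 in short-term dauer and 0.68 in control descendants, beside -0.09, -0.28 and -0.15 over all genes. With library size alone the members' medians were 0.25, 0.38 and 0.42 in the same order, beside -0.32, -0.68 and -0.41 over all genes. On that scale 4 of 9 members were called in long-term dauer descendants, 3 higher and 1 lower, and 7 of 9 in each of the other ancestries, 5 higher and 2 lower.

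**Figure D1:**
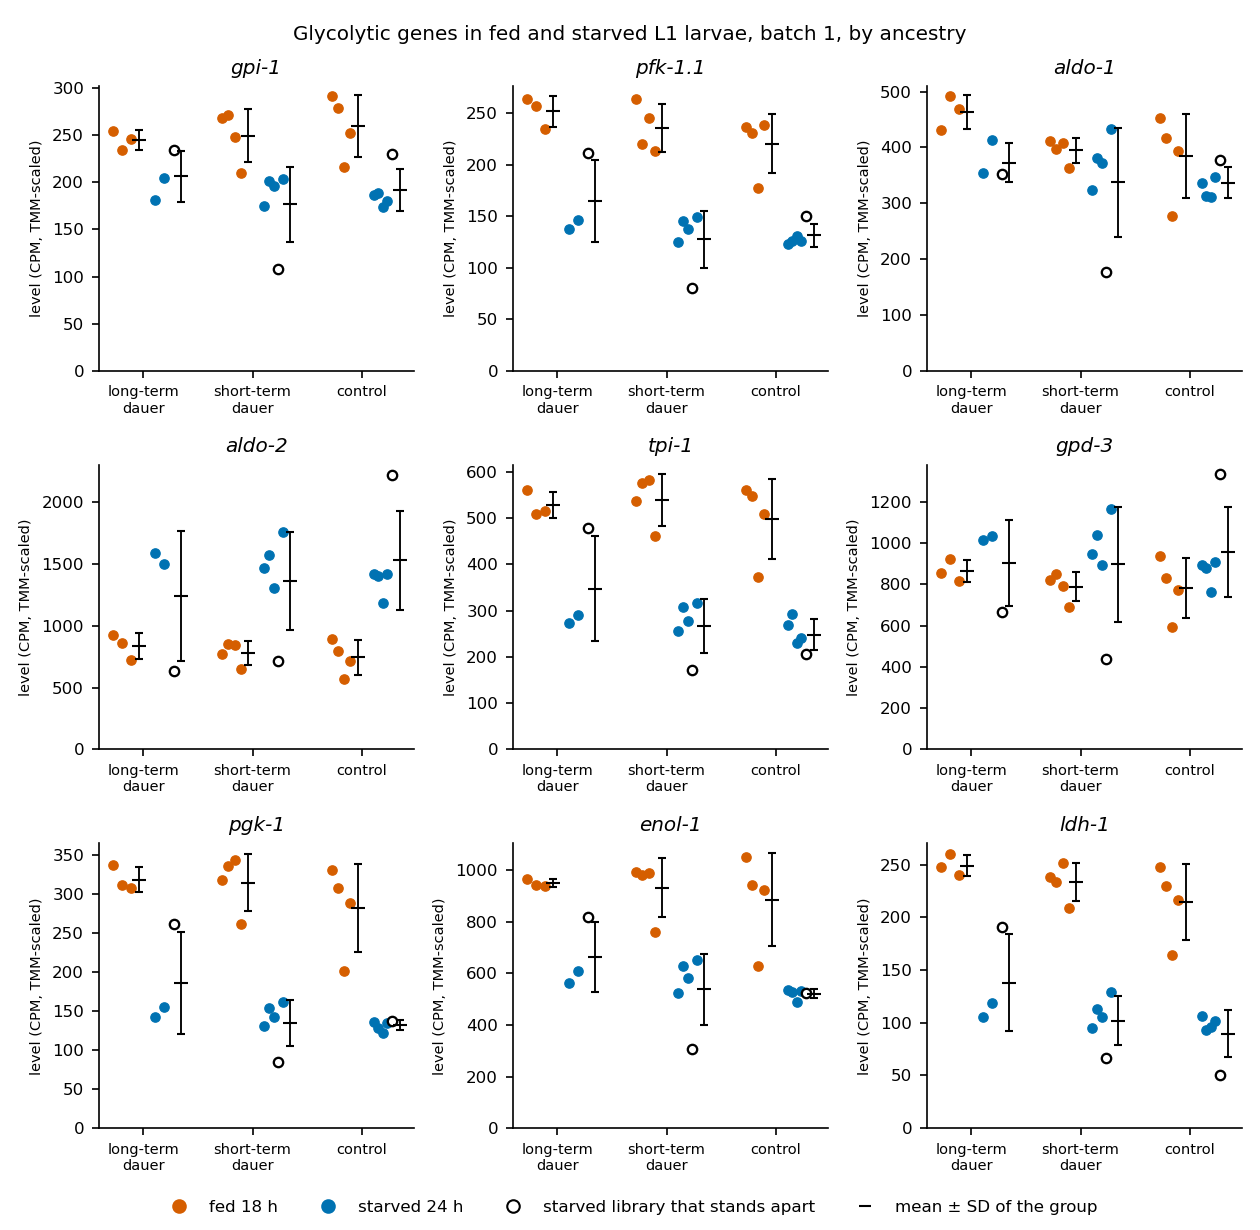
Level of each tested glycolytic gene in every batch 1 library (y axis, TMM-scaled CPM), with fed libraries left of starved libraries within each ancestry and long-term dauer, short-term dauer and control descendants from left to right. Points are libraries, bars are mean ± SD, and open circles mark the 3 batch 1 starved libraries that stood apart. For aldo-2 the fed libraries lie below the starved ones apart from the 2 open circles in dauer descendants.

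Phosphoglycerate kinase (pgk-1), which makes ATP in the pay-off phase, had 331, 308, 201 and 289 CPM in fed and 137, 129, 122, 135 and 137 CPM in starved control descendants, and the groups did not overlap. The log2 fold change was 1.03 (SE 0.18, edgeR adjusted p = 4.72e-05). Short-term dauer descendants had 319, 336, 344 and 262 CPM when fed and 131, 154, 142, 85.4 and 162 CPM when starved, also without overlap (log2 fold change 1.14, adjusted p = 2.12e-05 in edgeR). In long-term dauer descendants the levels were 337, 312 and 308 CPM in fed and 143, 155 and 262 CPM in starved libraries, without overlap, where the highest starved value belonged to LC4_49d.

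Triosephosphate isomerase (tpi-1), which interconverts the products of aldolase, had 559.9, 549, 372 and 509.7 CPM in fed and 269, 293, 231, 241 and 207 CPM in starved control descendants (log2 fold change 0.94, SE 0.17, edgeR adjusted p = 8.45e-05). All fed libraries were above all starved ones. Enolase (enol-1), which makes phosphoenolpyruvate, had 1051, 942, 631 and 925 CPM in fed and 535, 529, 491, 530.5 and 524 CPM in starved control descendants, again without overlap, and its log2 fold change was 0.70 (SE 0.17, edgeR adjusted p = 0.00138). The lowest fed value of both genes came from the same library, LC12, which on the TMM scale was the lowest fed control library for 9 of the 9 tested members. On the library-size scale LC12 was not the lowest for gpi-1, with 225 CPM against 220 CPM in fed control LC14.

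Lactate dehydrogenase (ldh-1), which regenerates NAD from NADH, had 248, 229.6, 164 and 216 CPM in fed and 106, 93.4, 96.4, 101 and 50.8 CPM in starved control descendants without overlap, and the log2 fold change was 1.21 (SE 0.19, edgeR adjusted p = 2.24e-05). The lowest starved value belonged to LC6, and the others were 93.4 to 106 CPM. Without LC6 the log2 fold change was 1.08 for ldh-1 and 1.08 for pgk-1. In short-term dauer descendants the log2 fold change was 1.11 (edgeR adjusted p = 5.84e-05).

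Phosphofructokinase (pfk-1.1), the committed step of glycolysis, had 236, 231, 178 and 239 CPM in fed and 123, 126, 131, 126 and 150.2 CPM in starved control descendants. The fed group lay above the starved group, and the log2 fold change was 0.68 (SE 0.16, edgeR adjusted p = 8.67e-04), and short-term dauer descendants gave 0.81 (edgeR adjusted p = 1.99e-04). Glucose-6-phosphate isomerase (gpi-1), the step before it, had 291, 279, 217 and 253 CPM in fed and 186, 189, 174, 179.8 and 230.1 CPM in starved control descendants, and the groups overlapped through starved LC6. Its log2 fold change, 0.37 (SE 0.15, edgeR adjusted p = 0.0468), rested on the scaling: with library size alone it was 0.12 (adjusted p = 0.17 in edgeR).

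The 2 aldolase genes, whose enzymes cleave fructose 1,6-bisphosphate, were read apart and then as a share. For aldo-2, control descendants had 892, 797, 565 and 718 CPM when fed and 1414, 1398, 1186, 1416 and 2217 CPM when starved. Every fed library was below every starved one, and the log2 fold change was -1.12 (SE 0.26, edgeR adjusted p = 8.18e-04). Short-term dauer descendants had 773, 855, 844 and 646 CPM when fed and 1466, 1573, 1307, 712 and 1752 CPM when starved, with overlap through starved LC14 only (log2 fold change -0.88, edgeR adjusted p = 0.0056).

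Its paralogue aldo-1 had 452, 416, 278 and 393 CPM in fed and 336, 313, 312, 347 and 377 CPM in starved control descendants, and the groups overlapped. Its log2 fold change of 0.12 did not pass the edgeR test (adjusted p = 0.5681), and with library size alone it was -0.14 (adjusted p = 0.267), so no direction is given. As a share of both aldolase genes per length, a ratio that no scaling changes, aldo-2 made up 58.6% to 66.5% (median 63.9%) in the 11 fed libraries and 62.4% to 85.4% (median 79.1%) in the 28 starved libraries. The lowest starved value was LC4_49d, and the other 27 were at least 76.4%, above every fed library. Summed as 1 feature, both aldolase genes had a log2 fold change of -0.80 in control descendants (edgeR adjusted p = 0.00498).

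The glyceraldehyde-3-phosphate dehydrogenase gene gpd-3 had 939, 831, 593 and 771 CPM in fed and 895, 877, 763, 909 and 1335 CPM in starved control descendants, and the groups overlapped. The log2 fold change of -0.36 (SE 0.22) did not pass the edgeR test (adjusted p = 0.163). On the library-size scale the levels were 752, 665, 615 and 672 CPM in fed and 946, 934, 908, 1039 and 1323 CPM in starved libraries, without overlap, and the log2 fold change was -0.61 (edgeR adjusted p = 0.00183). Over all genes, the median in control descendants was -0.41 on the log2 scale with library size alone and -0.15 with TMM, and the call of gpd-3 therefore depended on the scaling. Among reads of gpd-1, gpd-3 and gpd-4 per length, gpd-3 made up 91.2% to 96.2% in fed and 94.8% to 97.7% in starved libraries. The lowest fed share was that of control LC12, and the other fed libraries had at least 95.4%. Without the 5 starved libraries that stood apart, the starved shares were 96.2% to 97.7%.

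In the dauer descendants the remaining members were read library by library. Fed short-term dauer descendants had 537, 576, 582 and 462 CPM of tpi-1 and starved ones 257, 308, 278, 172 and 317 CPM, without overlap (log2 fold change 0.94, adjusted p = 1.05e-04 in edgeR). For enol-1 they had 995, 984, 992 and 761 CPM when fed and 526, 629, 582, 308 and 652 CPM when starved, also without overlap (0.71, adjusted p = 0.00131 in edgeR). For ldh-1 the levels were 239, 234, 252 and 209 CPM in fed and 95, 113, 106, 67 and 129.6 CPM in starved libraries, and each fed value exceeded each starved one. On the TMM scale starved LC14, with a factor of 1.75, was the lowest of these starved libraries for 9 of the 9 tested members. On the library-size scale it was not the lowest for pfk-1.1, tpi-1, pgk-1 or ldh-1. For pfk-1.1 the levels were 264, 221, 245 and 213 CPM in fed and 125, 146, 137, 80.4 and 149 CPM in starved libraries, and for gpi-1 268, 271, 248 and 210.2 CPM in fed and 175, 201, 196, 108 and 203 CPM in starved libraries, without overlap for either. On the library-size scale gpi-1 overlapped, at 222, 221, 199 and 203 CPM in fed and 196, 206, 204, 189 and 201 CPM in starved libraries. The gpi-1 log2 fold change was 0.42 (SE 0.15, adjusted p = 0.025 in edgeR) and 0.08 with library size alone (adjusted p = 0.319). For gpd-3 fed libraries had 819, 849, 794 and 689 CPM and starved ones 947, 1038, 893, 437 and 1166 CPM, and for aldo-1 fed libraries had 412, 396, 407 and 363 CPM and starved ones 324, 381, 371, 177 and 434 CPM, and both overlapped. The overlap of gpd-3 rested on starved LC14 and on the scaling: without LC14 every fed library was below every starved one, and on the library-size scale the levels were 677, 690.4, 637 and 665 CPM in fed and 1064, 1062, 927, 764 and 1155 CPM in starved libraries, also without overlap. The gpd-3 log2 fold change in short-term dauer descendants was -0.26 (adjusted p = 0.291 in edgeR), -0.58 with library size alone (adjusted p = 0.00275) and -0.43 without the 3 batch 1 libraries that stood apart (adjusted p = 0.00113).

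Long-term dauer descendants had 560.4, 510.1 and 515 CPM of tpi-1 when fed and 274, 291 and 478 CPM when starved, 968, 944 and 939 CPM of enol-1 when fed and 562, 609 and 818 CPM when starved, and 248, 259.9 and 240.4 CPM of ldh-1 when fed and 105, 119 and 191 CPM when starved. In all 3 the last starved value, LC4_49d, was the closest to the fed range without reaching it on the TMM scale. On the library-size scale it reached that range for tpi-1 (368, 401 and 409 CPM in fed and 260.3, 277 and 389 CPM in starved libraries) and enol-1 (636, 743 and 745 CPM in fed and 533, 580.1 and 667 CPM in starved libraries), while ldh-1 stayed without overlap. For aldo-2 the levels were 925, 856 and 719 CPM in fed and 1582, 1500.3 and 633 CPM in starved libraries, where LC4_49d fell below every fed library. Its log2 fold change was -0.61 (SE 0.31, adjusted p = 0.164 in edgeR) with that library and -0.91 (adjusted p = 0.014) without it, and -0.90 (adjusted p = 0.0194) with library size alone and all libraries. For pfk-1.1 fed libraries had 264, 258 and 234 CPM and starved ones 138, 146 and 211 CPM. The fed values of pfk-1.1 were the higher, and the log2 fold change was 0.56 (adjusted p = 0.0549 in edgeR), or 0.35 with library size alone (adjusted p = 0.0323). The gpi-1 levels were 255, 234 and 246 CPM in fed and 181, 204 and 235 CPM in starved libraries and gpd-3 levels 856, 924 and 818 CPM in fed and 1015, 1033 and 665 CPM in starved libraries, and both overlapped. For aldo-1 fed libraries had 431, 491 and 469 CPM and starved ones 353, 414 and 351 CPM, without overlap on the TMM scale and with overlap on the library-size scale (284, 387 and 372 CPM in fed and 335, 394 and 286 CPM in starved libraries), and the log2 fold change of 0.27 was not called (adjusted p = 0.377 in edgeR).

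Separation of the groups was also counted over libraries, first on the TMM scale. In control descendants every fed library was above every starved one for 5 of 9 members (27% of all genes) and below for 1 (20.4%). In short-term dauer descendants the counts were 6 above (28.1%) and 0 below (18.3%), and without starved LC14 they were 6 above (31.4%) and 2 below (24.1%), with aldo-2 and gpd-3 below. In long-term dauer descendants they were 6 above (15.2%) and 0 below (11.7%), and without starved LC4_49d 7 above (36.7%) and 2 below (36.3%). Across all 24 batch 1 libraries no member separated fed from starved larvae in either direction on this scale (0.727% of all genes above and 0.598% below). Without the 3 starved libraries that stood apart, gpi-1, pfk-1.1, tpi-1, pgk-1 and ldh-1 were above (24.6%) and aldo-2 below (14.8%).

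On the library-size scale the counts differed. In control descendants 5 members were above (21.7% of all genes) and 2 below (29%), and in short-term dauer descendants 5 above (16.5%) and 2 below (33.6%), with aldo-2 and gpd-3 the members below in both. In long-term dauer descendants 3 were above (3.98%) and 0 below (17.6%), and without LC4_49d 5 above (25.2%) and 2 below (49.2%). Across all 24 batch 1 libraries pfk-1.1 and ldh-1 were higher in every fed library than in any starved one (1.48% of all genes above), and 0 members were below (0.505%). Without the 3 libraries that stood apart, pfk-1.1, tpi-1, pgk-1 and ldh-1 were above (16.8%) and aldo-2 and gpd-3 below (22.1%).

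**Figure D2:**
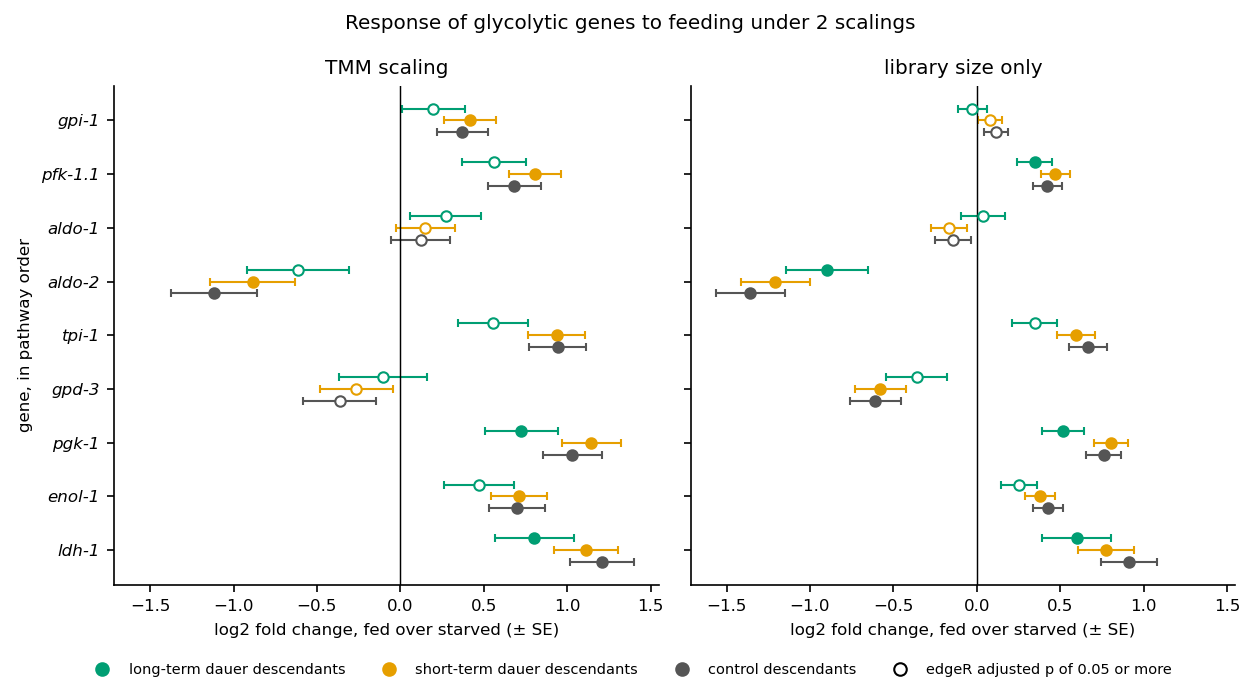
Log2 fold change, fed over starved, of the 9 tested genes in each ancestry (x axis, points with SE bars), under TMM scaling on the left and library size alone on the right. Filled points passed the edgeR test at an adjusted p under 0.05. Under TMM the values for aldo-2 were -0.61, -0.88 and -1.12 in long-term dauer, short-term dauer and control descendants. Calls change between the panels for gpi-1 and gpd-3 in short-term dauer and control descendants, and for pfk-1.1 and aldo-2 in long-term dauer descendants. The order of the aldo-2 values rested on the starved libraries that stood apart. Ratios of mean aldo-2 CPM, fed over starved, were 0.67, 0.57 and 0.49 with them and 0.54, 0.51 and 0.55 without them.

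Without the 3 batch 1 starved libraries that stood apart (control LC6, short-term dauer LC14 and long-term dauer LC4_49d), an alternative chosen after seeing the data, 7 of 9 members were called in long-term dauer descendants, against 52.1% of all genes. Those were gpi-1 (0.31), pfk-1.1 (0.79), aldo-2 (-0.93), tpi-1 (0.86), pgk-1 (1.06), enol-1 (0.66) and ldh-1 (1.12), as log2 fold changes. Without LC4_49d alone, 6 of 9 were called, against 38.9% of all genes. With all libraries the 2 called members of that ancestry were pgk-1 (0.72, edgeR adjusted p = 0.0374) and ldh-1 (0.80, edgeR adjusted p = 0.0355). In the mean of the 3 ancestries without those libraries, gpd-3 was also called, at -0.29 (edgeR adjusted p = 4.19e-04). In starved LC4_49d itself, aldo-2 stood at 633 CPM and ldh-1 at 191 CPM, while the other 6 starved long-term dauer libraries had 1237 to 1582 CPM of aldo-2 and 96.2 to 119 CPM of ldh-1.

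The mean of the 3 ancestries put the tested members in 3 groups. Higher in fed larvae were ldh-1 (1.04 on the log2 scale, SE 0.12), pgk-1 (0.97, SE 0.11), tpi-1 (0.81, SE 0.11), pfk-1.1 (0.68, SE 0.10), enol-1 (0.63, SE 0.11) and gpi-1 (0.33, SE 0.10), with edgeR adjusted p of at most 0.00442. Lower in fed larvae was aldo-2 (-0.87, SE 0.16, edgeR adjusted p = 4.08e-05). Not called were aldo-1 (0.18) and gpd-3 (-0.24). With library size alone gpi-1 was not called (0.06, edgeR adjusted p = 0.252) and gpd-3 was called (-0.52, edgeR adjusted p = 4.84e-05).

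Markers of tissues were counted in the mean of the 3 ancestries, where 72.9% of all genes were called. Of all genes 32.7% were called higher and 40.2% lower in fed larvae. Calls in either direction among muscle, intestine and neuron markers were near the share of all genes. In the same mean, 5 of 5 epidermis markers were higher in fed larvae by edgeR, with sums of 569 to 1219 CPM in fed and 87.6 to 849 CPM in starved libraries (96.3 to 122 CPM without the 5 libraries). For neurons 4 of 5 were lower, with sums of 904 to 1319 CPM in fed and 976 to 2443 CPM in starved libraries (1771 to 2325 CPM without the 5 libraries). Of 9 tested body wall muscle markers 3 were higher and 4 lower (sums of 11222 to 14118 CPM in fed and 6363 to 22827 CPM in starved libraries, 11572 to 17445 CPM without the 5), and of 6 intestine markers 2 were higher and 3 lower (sums of 2007 to 3171 CPM in fed and 875 to 2626 CPM in starved libraries, 1363 to 1851 CPM without the 5). With all libraries the fed and starved sums overlapped for each of these tissues. Without the 5 libraries they did not overlap for epidermis, neurons and intestine, and overlapped for muscle. The 5 were picked after seeing the data, LC4_49d among them for its fed level of col-17. The separation without them was therefore partly set by that choice and is no test. The part of tissue make-up in the glycolytic differences was not tested.

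Other genes of central carbon metabolism were counted from lists chosen with earlier results of these data known, in the mean of the 3 ancestries, where 32.7% of all genes were called higher and 40.2% lower in fed larvae. Among 9 other genes of glycolytic steps, hxk-2, a hexokinase, was higher (0.26 on the log2 scale), while pfk-1.2, another phosphofructokinase gene (-2.15, edgeR adjusted p = 1.11e-06), and pyk-2, a pyruvate kinase (-0.38), were lower, and 6 were not called. As a share of both phosphofructokinase genes per length, pfk-1.1 made up 97.2% to 99.5% in fed and 84.1% to 99.2% in starved libraries. The lowest fed share was that of control LC12, and the other fed libraries had at least 99.1%. Without the 5 starved libraries that stood apart, the starved shares were 91.9% to 97.3%.

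For pyruvate dehydrogenase, which feeds pyruvate into the citrate cycle, 3 of 4 tested genes were higher in fed larvae: pdhb-1 (0.70), dlat-1 (0.65) and the kinase pdhk-2 (0.25). Of 19 citrate cycle genes 13 were higher and 2 lower, with sucg-1 (1.78) and suca-1 (1.31), both annotated to succinyl-CoA synthetase, among the higher ones and aco-2, an aconitase (-0.53), among the lower. Of 5 genes of gluconeogenesis 2 were higher and 2 lower. The fructose-1,6-bisphosphatase gene fbp-1, which works against phosphofructokinase, was higher (0.88). Of the phosphoenolpyruvate carboxykinase genes pck-1 was higher (0.42), and pck-2 (-0.61) and pck-3 (-1.84) were lower. Among 8 regulators and transporters 3 were higher and 2 lower, including the AMP-activated kinase gene aak-2 (-0.50), which was lower, and the glucose transporter gene fgt-1 (0.33), which was higher. The gene mai-1, which shares the operon of gpd-2 and gpd-3, was higher (0.41, edgeR adjusted p = 0.00687).

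The question posed by the ancestry design is whether glycolytic genes responded to food differently after ancestral dauer. No difference was called: 0 of 9 members passed the edgeR test in any of the 3 comparisons of responses, as 0% of all 19406 genes were called in each. At an unadjusted p under 0.05 the count was also 0 of 9 in each, beside 8.96%, 2.26% and 5.91% of all genes in the long-term dauer minus control, short-term dauer minus control and long-term dauer minus short-term dauer differences. The member with the lowest p was tpi-1 for long-term dauer minus control, with a difference of responses of -0.39 (SE 0.27, edgeR adjusted p = 0.679). It was aldo-2 for short-term dauer minus control (0.23, SE 0.35, edgeR adjusted p = 1.00) and pgk-1 for long-term dauer minus short-term dauer (-0.42, SE 0.28, edgeR adjusted p = 0.855). These differences rested on the libraries that stood apart: that of tpi-1 was -0.07 without starved LC4_49d, and without the 3 batch 1 libraries the values were -0.04 for tpi-1, -0.14 for aldo-2 and 0.03 for pgk-1. Given these SEs, a difference that misses the threshold does not show that the responses were alike.

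Ancestries were then compared among the 28 starved libraries with batch as a term. Again 0 of 9 members were called in each of the 3 comparisons (edgeR), as 0% of all 15980 genes were. At an unadjusted p under 0.05, 1 member was counted in long-term dauer against control (13% of all genes), 0 in short-term dauer against control (1.47%) and 1 in long-term dauer against short-term dauer (10.2%). The 1 member was pgk-1 in both, at 0.23 (SE 0.10, edgeR adjusted p = 0.359) and 0.24 (SE 0.11, edgeR adjusted p = 0.471). In short-term dauer against control the lowest p among members was that of gpi-1, at -0.09 (SE 0.07, adjusted p = 1.00 in edgeR). Starved pgk-1 levels over both batches were 143 to 262 (median 159) CPM in long-term dauer, 85.4 to 179 (median 148) CPM in short-term dauer and 122 to 197 (median 137) CPM in control descendants, and the ranges overlapped. Without the 5 libraries, log2 fold changes of the members lay between -0.03 and 0.08 for long-term dauer against control, between -0.08 and 0.01 for long-term dauer against short-term dauer, and between 0.01 and 0.08 for short-term dauer against control.

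**Figure D3:**
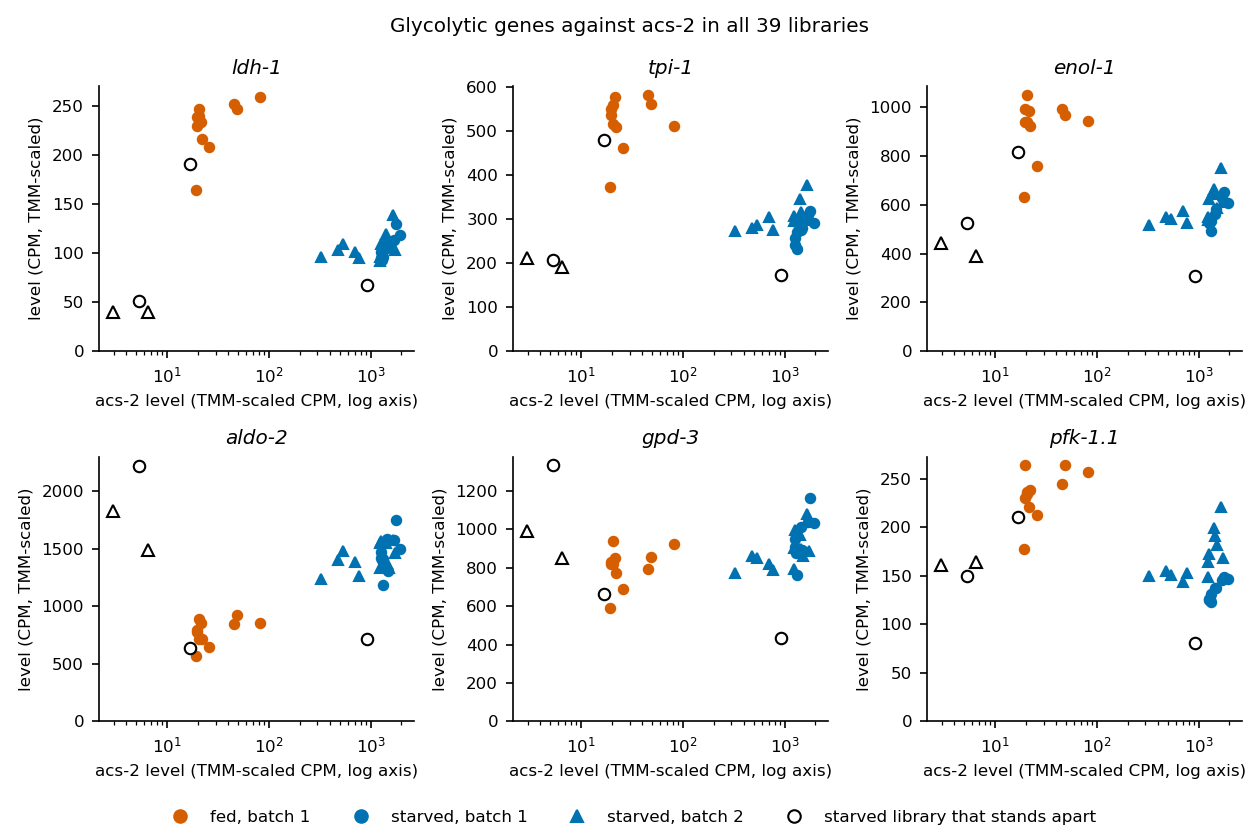
Level of 6 glycolytic genes (y axis, TMM-scaled CPM) against the level of acs-2 (x axis, TMM-scaled CPM, log axis) in all 39 libraries, with fed libraries in orange, starved libraries in blue, circles for batch 1, triangles for batch 2 and open symbols for the 5 starved libraries that stood apart. All open symbols but starved short-term dauer LC14 lie left of every fed library, and in the 3 at the left edge ldh-1 is at most 50.8 CPM, lower than in the other 36 libraries.

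The 3 starved libraries low in acs-2 lay below both the fed libraries and the other starved libraries that did not stand apart for ldh-1 and tpi-1. For ldh-1 they had 50.8 CPM (control LC6), 39.7 CPM (control 14 of batch 2) and 40.1 CPM (short-term dauer 14 of batch 2), below the 91.7 to 139 CPM of the 23 starved libraries that did not stand apart. Their aldo-2 levels were 2217, 1825 and 1490.1 CPM in the same order, against 1186 to 1752 CPM in those 23. For tpi-1 they had 207, 210.3 and 191 CPM, against 231 to 378 CPM. These libraries were picked by acs-2 after seeing the data and the differences are given as values with no test.

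For the other members, starved levels over both batches overlapped between the ancestries as well. Levels of ldh-1 were 96.2 to 191 (median 109) CPM in long-term dauer, 40.1 to 129.6 (median 106) CPM in short-term dauer and 39.7 to 139 (median 98.8) CPM in control descendants. Those of aldo-2 were 633 to 1582 (median 1377) CPM, 712 to 1752 (median 1466) CPM and 1186 to 2217 (median 1439) CPM in the same order of ancestries. For gpd-3 they were 665 to 1033 (median 852) CPM, 437 to 1166 (median 893) CPM and 763 to 1335 (median 899.5) CPM. For these 3 genes the medians of the ancestries lay closer together than the libraries within any of them. The aldo-2 share of both aldolase genes per length averaged 62.2 ± 3.95% in fed and 73.3 ± 9.59% in starved long-term dauer descendants of batch 1 (SD), 64.4 ± 2.02% in fed and 78.8 ± 1.52% in starved short-term dauer descendants, and 64.1 ± 1.05% in fed and 80.2 ± 2.52% in starved control descendants. In starved larvae of batch 2 it averaged 78.8 ± 1.85%, 80.6 ± 2.74% and 80.2 ± 2.61% in long-term dauer, short-term dauer and control descendants.

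Ancestry was compared last among the 11 fed libraries. None of the 9 members was called in the 3 comparisons (edgeR; 0% of all 16132 genes in each), and at an unadjusted p under 0.05 the counts were 1, 0 and 0 of 9 for long-term dauer against control, short-term dauer against control and long-term dauer against short-term dauer, beside 4.38%, 5.12% and 2.55% of all genes. The 1 member was aldo-1, with 431, 491 and 469 CPM in fed long-term dauer and 452, 416, 278 and 393 CPM in fed control descendants and overlapping ranges. Its log2 fold change was 0.26 (SE 0.11, edgeR adjusted p = 0.932). The lowest p in short-term dauer against control was that of pgk-1, at 0.15 (SE 0.11, adjusted p = 0.881 in edgeR), and in long-term dauer against short-term dauer that of aldo-1, at 0.23 (SE 0.11, adjusted p = 1.00 in edgeR). Only 3 fed libraries represent long-term dauer descendants. Of these, LC3_40d and LC3_49d share the number LC3, and whether they are independent was not tested.

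Levels per length were set side by side within libraries of fed and starved control descendants, as a description. In fed larvae the order was gpd-3 (678 ± 125 CPM per kilobase of exon, SD), enol-1 (558 ± 113), aldo-2 (547 ± 102), tpi-1 (425 ± 73.9), aldo-1 (307 ± 60.1), pgk-1 (199 ± 39.95), ldh-1 (186 ± 31.2), gpi-1 (125 ± 15.9) and pfk-1.1 (62 ± 8.13). In starved larvae aldo-2 (1123 ± 293) stood first and gpd-3 (827 ± 190.1) second, followed by enol-1 (328 ± 11.1), aldo-1 (269 ± 21.7), tpi-1 (212 ± 28.9), pgk-1 (93.1 ± 4.64), gpi-1 (92.1 ± 10.6), ldh-1 (77.8 ± 19.3) and pfk-1.1 (36.9 ± 3.05). Ranges of neighbours in the fed order overlapped down to ldh-1, while gpi-1 and pfk-1.1 each lay below the gene before it. In both states the committed enzyme gene pfk-1.1 had the lowest level per length of the 9. In the starved order ranges overlapped between aldo-2 and gpd-3, between aldo-1 and tpi-1, and from pgk-1 to ldh-1.

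**Figure D4:**
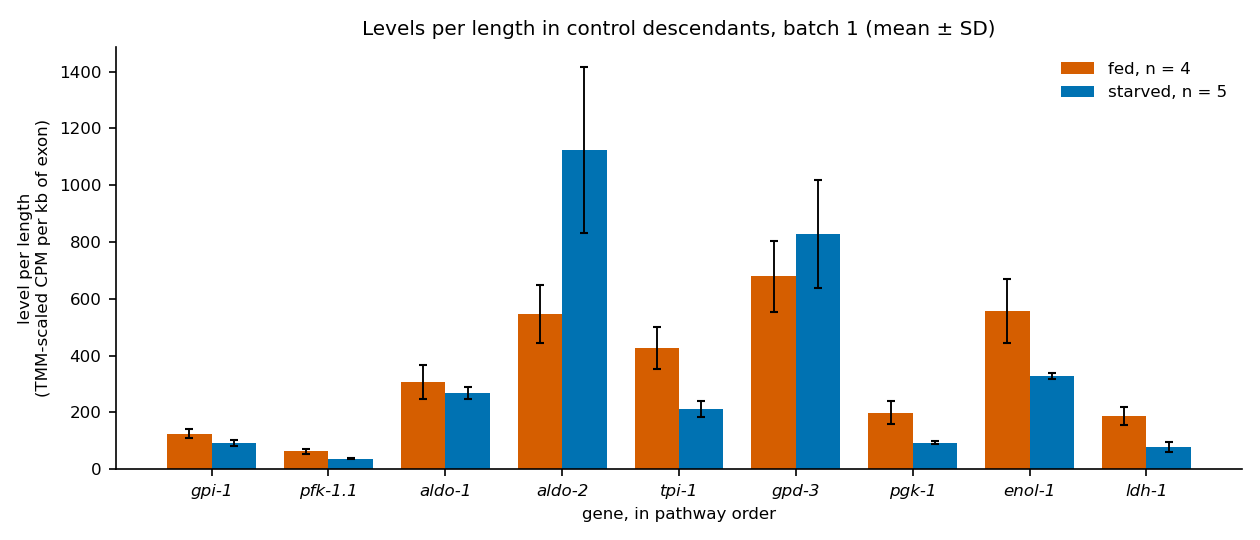
Level per length (y axis, TMM-scaled CPM per kilobase of exon) of the 9 tested genes in pathway order in batch 1 control descendants, fed bars (n = 4) left of starved bars (n = 5), with SD bars. The aldo-2 bar is the highest in starved larvae, at 1123 ± 293, and the gpd-3 bar is the highest in fed larvae, at 678 ± 125.

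Members also differed in how they varied together within a group. Over the deviations of log2 levels from group and batch means in all 39 libraries, Pearson's r was 0.94 between pgk-1 and enol-1 and -0.13 between aldo-2 and ldh-1. All members of a library share its scaling factor, and with library size alone the same 2 values were 0.86 and -0.40. The negative value rested on the 5 libraries that stood apart: without them r was 0.92 between pgk-1 and enol-1 and 0.69 between aldo-2 and ldh-1 with TMM (34 libraries), and 0.86 and 0.48 with library size. Over the 24 batch 1 libraries, the non-member gene closest to aldo-2 was clec-65 (r = 0.98 with TMM and 0.99 with library size), the one closest to pgk-1 was ucr-2.2 (r = 0.996 and 0.99), the one closest to aldo-1 was tnt-2 (r = 0.96 and 0.85), and the one closest to gpd-3 was F46H5.3 (r = 0.97 and 0.98). For the remaining members the closest gene depended on the scaling: with TMM it was F25B5.3 for gpi-1 (r = 0.97), men-1 for pfk-1.1 (0.99), nuo-6 for tpi-1 (0.99), immt-1 for enol-1 (0.99) and col-10 for ldh-1 (0.99), and with library size it was another gene for each. These correlations are across libraries that share feeding state and depth and carry no p.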

How the data were processed

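The deposited values are raw counts of reads on 44968 features. Lines for reads without a gene were not used in library sizes or tests. The submitters' processing notes name Bowtie 1.1.2, HTSeq and edgeR. The genome build is not given in the sources used here, so no coordinates are printed. Per the labels' protocols the libraries came from a kit that does not mark strand. Of the features, 44440 were matched to Ensembl gene symbols and exon lengths by transcript name.

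The counts were tested here with edgeR 4.0.16 in R 4.3.3 (TMM, filterByExpr by group, robust quasi-likelihood test, Benjamini-Hochberg over all genes tested, adjusted p under 0.05). Feeding was fitted on 24 batch 1 libraries with 1 coefficient per group, starved larvae on 28 libraries with batch, and fed larvae on 11. DESeq2 1.42.0, limma 3.58.1 and other settings were alternatives. The edgeR script was tested on simulated data. The submitters describe biological replicates. The p-values weigh differences between groups against the spread between these samples, and the main fits treat the libraries as independent.

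Every member was named. The members and lists were chosen with earlier results of these data known. Levels were planned and are given with TMM factors. Library size alone, and leaving out libraries that stood apart, were added after seeing the data, and the screen for libraries far from their group was run on both scales. In the planned rule gpd-2 was to be given as a share of similar genes, which could not be made. No pair of libraries of a group held identical counts.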

Additional observations from a re-analysis of the deposited data

Results flagged for a closer look

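Levels of each member were screened for a library far from the rest of its group, in groups of 4 to 9 libraries. Starved control descendants (12 libraries) and fed long-term dauer descendants (3 libraries) were not screened. On the TMM scale 10 of 36 screened sets held such a library, where chance gives about 1.8, and on the library-size scale 4 did. The sets share libraries and scaling factors and are not independent. The planned scale is TMM, and its values follow.

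Starved long-term dauer LC4_49d stood apart for 5 members. It had 632.8 CPM of aldo-2 (others 1237 to 1582), 478.2 CPM of tpi-1 (others 273.5 to 315.2), 261.9 CPM of pgk-1 (others 142.6 to 176.8), 818.5 CPM of enol-1 (others 515.5 to 644.4) and 190.6 CPM of ldh-1 (others 96.19 to 119). Starved short-term dauer LC14 stood apart for 3 members. It had 108.2 CPM of gpi-1 (others 174.9 to 214.6), 711.8 CPM of aldo-2 (others 1307 to 1752) and 436.7 CPM of gpd-3 (others 821.2 to 1166). Fed control LC12 had 177.7 CPM of pfk-1.1 (others 230.6 to 238.5), and fed short-term dauer LC14 had 760.7 CPM of enol-1 (others 983.9 to 995.4).

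On the library-size scale the sets were aldo-2 (515.4 CPM) and gpd-3 (542.0 CPM) in starved long-term dauer LC4_49d, tpi-1 (385.6 CPM) in fed control LC12, and ldh-1 (45.77 CPM) in starved short-term dauer 14 of batch 2. Only aldo-2 in LC4_49d was found on both scales. The cause of the differences between the scales was not tested.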

How the results depend on the processing

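Of the 13 comparisons, 12 kept their count of called members within 1.5 times under every alternative run, and the 9 comparisons between ancestries and of responses stayed at 0. The exception was fed against starved in long-term dauer descendants, with 2 of 9 called (12.1% of all genes). The count was 4 with DESeq2, 8 with limma voom and quality weights, 4 with library size alone and 0 with that ancestry fitted alone. It was 7 without the 3 batch 1 starved libraries (52.1% of all genes). Leaving out 1 library at a time gave 0 to 6: 6 without starved LC4_49d (38.9% of all genes), 5 without starved short-term dauer LC14, and 0 without any other long-term dauer library. With the replicate block the count was 4. The block moved no other count. Deviations of same-numbered fed and starved libraries correlated at -0.12 to 0.44 (median 0.19). Those of same-numbered starved short-term dauer and control libraries correlated at -0.32 to 0.62 (median 0.27). The main fits did not pair libraries by number, and these values do not settle whether the numbers mark pairs.

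Some log2 fold changes, none called under TMM, changed sign. With library size alone gpi-1 was -0.028 in long-term dauer descendants and aldo-1 was -0.17, -0.14 and -0.092 in short-term dauer and control descendants and in the mean. In short-term dauer descendants aldo-1 was also -0.0044 with voom and -0.0059 without the 3 libraries. The difference of aldo-2 responses between short-term dauer and control was -0.047 with voom and -0.14 without the 3, that of pgk-1 between long-term and short-term dauer 0.035 without the 3, and starved gpi-1 in short-term dauer against control 0.010 without the 5. Leave-one-out runs spanned -0.013 to 0.27 for aldo-1 in short-term dauer descendants and -0.26 to 0.015 for gpd-3 in long-term dauer descendants. The control call of gpi-1 was lost in 20 of 34 alternatives. Over all genes, the count called in long-term dauer descendants was 2356, against 4418 with DESeq2, 11717 with voom, 4869 with the replicate block, 10144 without the 3 libraries, 0 with the ancestry fitted alone, and 0 to 7929 with 1 library left out. DESeq2, voom, the block and the run without the 3 libraries thus called more members and also more of all genes. Their member counts are not read as a result about the members alone. Between ancestries edgeR called 0 genes and DESeq2 0 to 34, and edgeR on all 39 libraries called 172 in starved long-term dauer against control, no member among them. Causes were not tested.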
